A study of Mus musculus with 12 samples.

Results

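The acute phase protein genes Saa1, Saa2, Saa3, Hp, Hpx, Orm1, Orm2, Lcn2, Apcs and Crp were chosen by symbol and make up 10 of the 32285 genes in the count matrices. They were followed in single-cell RNA sequencing libraries of liver from 12 neonatal mice, 6 naive controls and 6 with phlebotomy-induced anemia (PIA), with 1 library per mouse. All 12 pups carried the genotype label C57BL6/J, were nursed by the dam, and gave liver at postnatal day (P) 11. Anemic pups lost 20 µL of blood per g of body weight from the facial vein at intervals of 2 days from P2 to P10. Control pups received a daily needle stick that drew no blood, so no group was left unhandled. The design asks how repeated phlebotomy, set against needle sticks that drew no blood, relates to the genes of the acute phase response in hepatocytes and in immune and endothelial cells. Blood loss and the differing procedure and schedule of sticks cannot be told apart in it.

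The acute phase response is the shift in plasma proteins that follows infection, tissue injury or other stress. Interleukin-6, interleukin-1 and related cytokines from macrophages and other cells reach hepatocytes, where STAT3, C/EBP and NF-kB family factors raise the transcription of positive acute phase genes, while negative acute phase genes such as Alb fall. Serum amyloid A proteins (Saa1, Saa2, Saa3) bind lipoprotein and retinol, haptoglobin (Hp) binds free hemoglobin, hemopexin (Hpx) binds free heme, and the orosomucoids (Orm1, Orm2) carry basic and neutral small molecules. Lipocalin-2 (Lcn2) binds bacterial siderophores and so withholds iron, and the pentraxins Apcs (serum amyloid P component) and Crp (C-reactive protein) bind microbial surfaces and cell debris. In mice Apcs is the strongly induced pentraxin and Crp responds weakly. Several of these genes are also used outside hepatocytes: Lcn2 and Hp are packed into neutrophil granules, and Saa3 is made by macrophages and other non-hepatic cells.

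The members lie in a few clusters of the mouse genome (build GRCm38, the same assembly as mm10), and all are protein-coding genes in the GENCODE M21 annotation. The serum amyloid A genes sit together on chromosome 7, with Saa3 at chr7:46711998-46715700 and Saa1 at chr7:46740497-46742980 on the minus strand and Saa2 at chr7:46751790-46754313 on the plus strand, each with 4 exons. Orm1 at chr4:63344560-63348163 and Orm2 at chr4:63362449-63365878, with 6 exons each, flank another copy, Orm3. Crp at chr1:172698055-172833031 and Apcs at chr1:172893961-172895041 are neighbours on opposite strands. Hp is at chr8:109575128-109579172, Hpx at chr7:105591613-105600137 and Lcn2 at chr2:32384633-32388252. Near-identical copies limit the counts of single members. The last 300 bases of the longest transcripts, where 3' libraries collect their reads, were 97.7% identical between Orm1 and Orm2 and 92.4% identical between Saa1 and Saa2. Over the whole transcripts, 65 overlapping windows of 91 bases, counted by start position, were identical in Orm1 and Orm2, so the split of reads within this pair is uncertain. Saa1 and Saa2 shared 0 such windows, so reads of that length differ between them.

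The bases upstream of the start site are shown for the members that the results below turn on, Saa1 and Saa2 as a pair that moved together, Saa3 as the copy seen in myeloid cells, and Apcs and Crp as neighbours whose summed levels in hepatocyte-like cells changed in opposite directions. They come from the RefSeq promoter table of build GRCm38.p6, run 5' to 3' on the strand of the gene, and stop before the first base that GENCODE places in an exon. Capitals mark matches to TTGCNNAA or its reverse TTNNGCAA, a C/EBP motif, and to TTCNNNGAA, a STAT motif that reads the same on both strands. The windows are chr7:46742981-46743230 (minus strand) for Saa1, chr7:46751583-46751789 (plus) for Saa2, chr7:46715701-46715926 (minus) for Saa3, chr1:172895055-172895304 (minus) for Apcs and chr1:172697806-172698054 (plus) for Crp.
Saa1: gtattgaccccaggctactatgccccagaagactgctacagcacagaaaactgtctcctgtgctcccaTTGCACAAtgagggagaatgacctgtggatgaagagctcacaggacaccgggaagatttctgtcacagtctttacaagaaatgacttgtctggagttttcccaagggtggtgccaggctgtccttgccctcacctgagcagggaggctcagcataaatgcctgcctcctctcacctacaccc
Saa2: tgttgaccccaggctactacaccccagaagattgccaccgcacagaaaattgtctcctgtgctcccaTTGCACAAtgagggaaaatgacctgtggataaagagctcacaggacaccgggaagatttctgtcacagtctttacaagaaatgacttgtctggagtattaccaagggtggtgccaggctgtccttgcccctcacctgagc
Saa3: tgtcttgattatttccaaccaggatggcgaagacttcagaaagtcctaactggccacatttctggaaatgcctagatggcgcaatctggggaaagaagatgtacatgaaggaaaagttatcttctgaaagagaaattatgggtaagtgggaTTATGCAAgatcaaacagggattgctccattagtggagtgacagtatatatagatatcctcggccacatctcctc
Apcs: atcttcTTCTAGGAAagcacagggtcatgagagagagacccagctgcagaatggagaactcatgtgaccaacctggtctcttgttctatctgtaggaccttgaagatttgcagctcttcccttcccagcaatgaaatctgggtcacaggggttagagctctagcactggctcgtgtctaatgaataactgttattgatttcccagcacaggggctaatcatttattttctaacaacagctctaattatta
Crp: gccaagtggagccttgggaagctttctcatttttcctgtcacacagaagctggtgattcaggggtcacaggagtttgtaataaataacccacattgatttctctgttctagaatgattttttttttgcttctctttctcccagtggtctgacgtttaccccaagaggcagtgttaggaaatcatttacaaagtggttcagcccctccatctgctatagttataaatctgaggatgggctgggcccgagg
The full 250-base windows of Saa1 and Saa2 were 94.8% identical and held the same C/EBP match, TTGCACAA, 182 and 183 bases before the start. Across the 8 members in the promoter table (Hp and Orm1 have no entry), 6 held a C/EBP match, against 9.57% of the 32536 distinct windows of that length in the table. The 6 include Saa1 and Saa2, which are near-identical and not separate finds, and Lcn2, whose window lies inside its GENCODE gene. A STAT match was found in 1 of the 8, Apcs, against 7.04% of all windows. None of the 8 held the NF-kB motif searched on both strands (1.4% of all windows) or the hypoxia response letters ACGTG or CACGT (16.7%). These are matches of letters, not sites of binding.

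The files held 207537 cell barcodes, of which 206146 were kept, 14184 to 21186 per mouse with 45751640 to 74344118 unique molecular identifiers (UMIs, counts of captured RNA molecules). Any pair of libraries shared 51 to 121 barcodes, at most 0.694% of the smaller library. Cells were clustered without the members, and a cluster was named only from marker genes. Clusters with 14.3% of control cells and 11.2% of anemic cells stayed unnamed. The anemic mice 2 and 3 stood apart, with 4551 and 2113 monocyte-like cells against 252 to 481 in each other mouse, and the main results that rest on them are given with and without them. Levels are in CPM, the usual scaling of a gene's UMI count by all UMIs that a mouse gave in that cell class. Changes are log2 fold changes of anemic over control mice from edgeR's quasi-likelihood test on counts summed per mouse, with Benjamini-Hochberg adjusted p-values over all genes tested. Their standard errors were derived from that test, as the absolute log2 fold change divided by the square root of the F statistic. The p-values measure the spread between these mice.

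In hepatocyte-like cells, the serum amyloid A, orosomucoid, lipocalin-2, haptoglobin and Apcs genes were higher in anemic mice and Crp was lower. Of the 10 members, all of which passed the filter of a mean of 5 UMIs per mouse, 8 were called higher, 1 fell and Hpx did not pass the test. Not all of these calls held under every setting, as given below for Saa3, Hp and Crp among others. The change was broad in this class: 47.6% of all 11146 genes tested were called, 22.7% higher and 24.9% lower, and the count of members is read against those shares. In cells with at most 10% mitochondrial UMIs the calls fell to 2431 of 10194 genes. The median log2 fold change of the members was 3.95 and fell to 0.30 without mice 2 and 3, beside -0.06 and -0.05 for all genes tested. The class held 16717 cells, 665 to 2710 per mouse with 1342984 to 4402237 UMIs. Its 9 hepatocyte markers were all detected and summed to 132116 to 143460 CPM in controls and 86906 to 128234 CPM in anemic mice, while the 10 erythroid markers summed to 1873 to 7625 CPM and 9069 to 26849 CPM. The part of these 2 shifts in the changes below was not tested. Library sizes without TMM factors, the trimmed-mean scaling of edgeR, moved the median change of all genes to -0.27 and the split of higher and lower calls from 2532 and 2774 to 1454 and 4114. Without anemic mice 2 and 3, 4 members were called, Apcs, Lcn2 and Orm1 higher and Saa3 lower, against 45.6% of all genes. Saa3 entered that test only through controls, so that its call is a description.

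**Figure D1:**
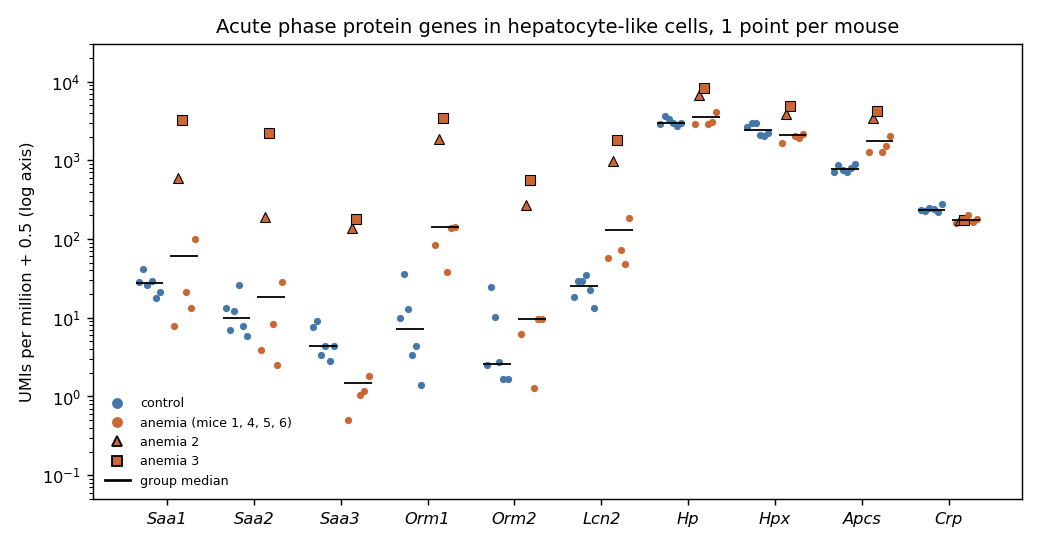
Levels of the 10 acute phase protein genes in hepatocyte-like cells, in CPM plus 0.5 on a log axis, with 1 point per mouse (6 control, 6 anemic) and bars at group medians. Anemic mice 2 (triangles) and 3 (squares) lie above all other mice for every gene but Crp, and for Orm1, Lcn2 and Apcs the other 4 anemic mice also lie above all controls.

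Apcs changed in every anemic mouse. Controls ranged from 712 to 887 CPM with a median of 774.9, and anemic mice from 1267 to 4211 CPM with a median of 1773. No anemic mouse overlapped the controls, and mice 2 and 3 were the highest at 3453 and 4211 CPM. The log2 fold change was 1.68 ± 0.24 (SE; n = 6 per group; edgeR adjusted p = 2.91e-05), and it was 1.17 ± 0.13 without mice 2 and 3 (edgeR adjusted p = 8.96e-07). Within the 6 hepatocyte-like clusters taken one at a time, Apcs was higher in anemic mice in 6, with no overlap of the groups in 5.

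Lcn2 and Orm1 were low in controls and higher in all 6 anemic mice. Lcn2 ranged from 12.97 to 34.5 CPM in controls (median 25.1) and from 47.9 to 1822 CPM in anemic mice (median 128.7). Mice 2 and 3 held 966.6 and 1822 CPM and the other 4 anemic mice 47.9 to 185.4 CPM, all above the highest control. Its log2 fold change was 4.54 ± 0.82 (edgeR adjusted p = 2.11e-04), and 2.15 ± 0.32 without mice 2 and 3 (edgeR adjusted p = 2.14e-05). Because neutrophils are rich in Lcn2, its UMIs were also set against those of 8 neutrophil markers in the same cells. In mice 2 and 3 this ratio was 240.7 and 219.1 times that in neutrophil-like cells of the same mouse, and in controls 2.64 to 16.3 times (10.4 to 240.7 times over all 6 anemic mice). The summed neutrophil markers in hepatocyte-like cells were 61.6 to 585.8 CPM in controls and 101.9 to 390.2 CPM in anemic mice. Orm1 ranged from 0.884 to 34.9 CPM in controls (median 6.69) and from 37.3 to 3451 CPM in anemic mice (median 140.1). The groups did not overlap, although control 2 at 34.9 CPM came close to anemic mouse 4 at 37.3 CPM. For Orm1 the log2 fold change was 6.70 ± 1.13 (edgeR adjusted p = 1.22e-04), and 3.63 ± 0.47 without mice 2 and 3 (edgeR adjusted p = 4.87e-06). On the scale of the edgeR normalization, 3 members had values without overlap between groups, Apcs, Lcn2 and Orm1, against 24.6% of all genes tested. On the unscaled CPM printed here Crp did not overlap either, against 24.9% of all genes.

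The same genes were seen in more cells. In hepatocyte-like cells thinned to 1000 UMIs each, a mouse had Lcn2 in a median of 1.70% of cells in controls (0.458% to 2.44%) and 11.4% in anemic mice (4.22% to 66.2%). Orm1 was found in a median of 0.700% of cells in controls (0 to 3.38%) and 11.1% in anemic mice (3.92% to 82.5%). Apcs was found in a median of 48.0% of cells in controls (46.5% to 54.6%) and 64.6% in anemic mice (54.9% to 85.9%). In each case every anemic mouse was above every control (exact two-sided permutation test over mice, p = 0.00216, the smallest that 6 against 6 allows; adjusted p = 0.0238 over 55 member and class pairs). Without mice 2 and 3 the adjusted p of the same test was 0.0524 for each gene, above the threshold, at the smallest exact p possible, 0.00476. Without thinning the group means were 3.38% and 28.4% for Lcn2, 1.97% and 32.7% for Orm1, and 61.2% and 71.9% for Apcs, at median depths of 1313 and 1166 UMIs per cell. Thinning left out 2692 control cells and 4354 anemic cells with fewer UMIs. As a background for such shares, B-like cells, which should not make these genes, held Lcn2 in a median of 0.212% of thinned cells in controls and 0.512% in anemic mice, at median depths of 1313 and 1500 UMIs. There the medians were 0.0589% and 0.494% for Orm1, 3.20% and 3.44% for Apcs, 0.713% and 0.667% for Crp, and 0.0442% and 0.150% for Saa1, which reached 2.43% in mouse 3.

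The serum amyloid A genes and Orm2 changed mainly in anemic mice 2 and 3. Saa1 ranged from 17.2 to 41.4 CPM in controls (median 26.9), and anemic mice 1, 4 and 5 held 7.44, 20.8 and 12.7 CPM. Anemic mouse 6 held 99.5 CPM, mouse 2 held 598.9 CPM and mouse 3 held 3290 CPM. Thus 3 anemic mice were above all controls and 2 were below all controls. Saa2 followed Saa1, with 5.31 to 25.2 CPM in controls, 192 and 2208 CPM in mice 2 and 3, and 2.04 to 28.4 CPM in the other anemic mice. The log2 fold changes were 4.74 ± 1.16 for Saa1 (edgeR adjusted p = 0.00274) and 5.19 ± 1.35 for Saa2 (edgeR adjusted p = 0.00417). Without mice 2 and 3 neither passed, at 0.65 ± 0.47 (edgeR adjusted p = 0.275) and 0.05 ± 0.52 (edgeR adjusted p = 0.949). In mouse 3, 74.5% of thinned hepatocyte-like cells held a Saa1 UMI, in mouse 2 34.6%, and in controls 0.769% to 2.63%. Orm2 ranged from 1.15 to 24.2 CPM in controls, was 273.8 and 565.2 CPM in mice 2 and 3, and 0.8002 to 9.19 CPM in the other 4. Its log2 fold change was 4.59 ± 1.25 (edgeR adjusted p = 0.00574), and 0.31 ± 0.64 without mice 2 and 3 (edgeR adjusted p = 0.718).

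Anemic mice lay on both sides of the controls in Saa3. Controls held 2.29 to 8.60 CPM in hepatocyte-like cells, mice 2 and 3 held 137.3 and 178 CPM, and the other 4 anemic mice held 0 to 1.31 CPM, below every control. In mouse 1 no UMI was found, which at this depth allows a level of up to 0.859 CPM (3 UMIs). Saa3 had a log2 fold change of 3.37 ± 1.22 with all mice (edgeR adjusted p = 0.0298) and -2.53 ± 0.52 without mice 2 and 3 (edgeR adjusted p = 5.6e-04). Without mice 2 and 3 the counts were 6 to 18 UMIs per control and 0 to 5 per anemic mouse. Saa3 then entered the test only through controls, so that the second value is a description. The direction also depended on the method, since a joint limma voom fit of all mice gave -1.38 (limma adjusted p = 0.309). Relative to 8 monocyte markers in the same cells, Saa3 in mice 2 and 3 was 4.13 and 9.20 times as high in hepatocyte-like cells as in monocyte-like cells, while in the controls with Saa3 UMIs in both classes the value was at least 8.76 times. Saa4, the constitutive neighbour in the same gene cluster, held 70.5 to 90.3 CPM in controls and 56.8 to 186.2 CPM in anemic mice and did not pass (log2 fold change 0.51 ± 0.21, edgeR adjusted p = 0.0525). Orm3 reached at most 0.745 CPM in any mouse and was not tested.

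The plasma scavengers of hemoglobin and heme were already abundant and changed less. Hp ranged from 2743 to 3621 CPM in controls (median 2957) and from 2866 to 8328 CPM in anemic mice (median 3597). Anemic mice 2, 3 and 6, at 6815, 8328 and 4119 CPM, were above all controls and the other 3 lay within the control range. For Hp the log2 fold change was 0.74 ± 0.22 (edgeR adjusted p = 0.00948), and 0.29 ± 0.12 without mice 2 and 3 (edgeR adjusted p = 0.0545) and 0.54 without TMM factors (edgeR adjusted p = 0.0514). Hpx ranged from 2009 to 2984 CPM in controls (median 2449) and from 1678 to 4844 CPM in anemic mice (median 2095). Mice 2 and 3 were above all controls at 3848 and 4844 CPM, and 2 of the other 4 were below all controls. Its log2 fold change of 0.28 ± 0.21 did not pass (edgeR adjusted p = 0.284) and was -0.14 without mice 2 and 3 (edgeR adjusted p = 0.377). Within the hepatocyte-like clusters taken one at a time Hpx was higher on average in anemic mice in 6 of 6, and with the 6 clusters given equal weight in each mouse the log2 difference was 0.61 (exact two-sided permutation test, unadjusted p = 0.0476).

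Crp, the neighbour of Apcs, was lower in the summed hepatocyte-like cells of anemic mice, but higher on average in most clusters taken one at a time. Controls ranged from 217 to 282 CPM (median 234.5) and anemic mice from 157 to 203 CPM (median 172.5), without overlap. The log2 fold change was -0.30 ± 0.10 (edgeR adjusted p = 0.0166), and it was -0.24 ± 0.10 without mice 2 and 3 (edgeR adjusted p = 0.0704) and -0.52 without TMM factors (edgeR adjusted p = 1.31e-04). A Crp UMI was found in 17.3% to 19.0% of thinned cells in controls and 12.4% to 15.5% in anemic mice (exact permutation test, adjusted p = 0.0238, and 0.0524 without mice 2 and 3). Cluster 25, where Crp was highest, averaged 376 CPM in controls and 503 CPM in anemic mice and did not overlap between groups. That cluster held 18.1% to 27.6% of a control mouse's hepatocyte-like cells and 6.57% to 11.4% of an anemic mouse's. Its cells had a median of 15.71% mitochondrial UMIs, against 1.02% to 2.51% in the other 5 clusters. In cells with at most 10% mitochondrial UMIs the log2 fold change of Crp was -0.02 (edgeR adjusted p = 0.935), and the part of the mitochondrial share in the fall was not tested further. Crp was higher on average in anemic mice in 5 of the 6 clusters and lower in 1. Only in 2 of them, clusters 25 and 33, was the unadjusted p under 0.05 (exact two-sided permutation test). When the 6 clusters were given equal weight in each mouse, anemic mice ranged from 158 to 194 CPM and controls from 111 to 151 CPM, a log2 difference of 0.31 in the opposite direction (exact two-sided permutation test, p = 0.00216). The clusters are groups of cells found in these data, so their shares are given as a description. Most control hepatocyte-like cells lay in clusters 14, 25 and 17, and most anemic ones in clusters 17, 14 and 28. With equal weights, the log2 differences of Apcs (1.30, p = 0.00216), Lcn2 (3.29, p = 0.00216) and Orm1 (5.40, p = 0.00433) kept their direction in the exact permutation test.

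**Figure D2:**
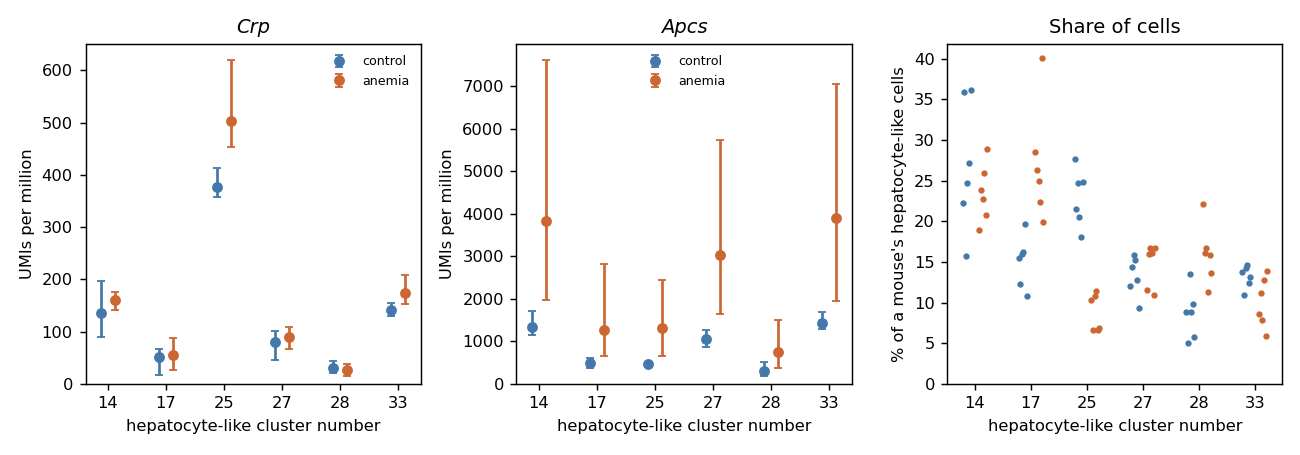
Crp and Apcs in each of the 6 hepatocyte-like clusters in CPM (points, means of 6 control or 6 anemic mice; bars, lowest to highest mouse), and the share of each mouse's hepatocyte-like cells in each cluster in percent. Crp was highest in cluster 25, which held 22.9% of control and 8.76% of anemic hepatocyte-like cells on average, and Apcs was higher in anemic mice in every cluster.

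Outside hepatocyte-like cells, members differed in their level relative to hepatocyte RNA in the same class. For this comparison, member UMIs were divided by the summed UMIs of the 9 hepatocyte markers in the same class and mouse, and by the same ratio in that mouse's hepatocyte-like cells. RNA released from hepatocytes alone would give 1 only if its make-up matched that mouse's captured hepatocyte-like cells, which was not tested. In controls the ratio of Hpx was 0.758 to 0.865 in endothelial-like, 0.791 to 0.867 in macrophage-like and 0.725 to 0.910 in B-like cells. The ratio of Apcs was 0.910 to 1.07, 0.917 to 1.10 and 1.04 to 1.38 in the same classes, and that of Hp was 1.06 to 1.26, 1.08 to 1.16 and 1.08 to 1.28. All of these ratios lay between 0.725 and 1.38. In endothelial-like, macrophage-like and B-like cells the control medians were 5.05, 3.81 and 3.25 for Lcn2, 3.08, 5.14 and 3.08 for Saa3, and 2.76, 0.993 and 3.29 for Orm1. The values for Saa3 and Orm1 rest on 5 to 28 UMIs over all 6 controls of a class, to which 0.5 UMI was added per mouse, and are rough. Hp stood out in 2 classes, with ratios of 4.63 to 6.25 in monocyte-like and 8.70 to 12.1 in neutrophil-like cells of controls. Lcn2 reached 2567 to 8161 in neutrophil-like cells and 3.24 to 28.7 in monocyte-like cells, and Orm1 reached 31.3 to 1055 in neutrophil-like cells. Saa3 reached 8.79 to 86.4 in monocyte-like cells of controls. Hepatocyte markers themselves were lower in other classes of anemic mice: in B-like cells they summed to 3746 to 5458 CPM in controls and 702.9 to 3062 CPM in anemic mice, lowest in mice 2 and 3. Of 77 member and class pairs, 27 had ratios that differed between groups (exact two-sided permutation test over mice, adjusted p below the 0.05 threshold), but 0 in cells with at most 10% mitochondrial UMIs and 16 without mice 2 and 3. Some of the 27, as Saa3 in macrophage-like and Orm1 in monocyte-like cells, averaged under 5 UMIs per control mouse. They entered only through anemic mice, so that the count is a description. Of the 27, 9 were for Hpx, whose ratio rose to 0.978 to 1.23 in B-like cells of anemic mice (adjusted p = 0.0152). Among the hepatocyte-like clusters Hpx, like Crp, was highest in cluster 25. The part of that cluster's smaller share in anemic mice was not tested.

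**Figure D3:**
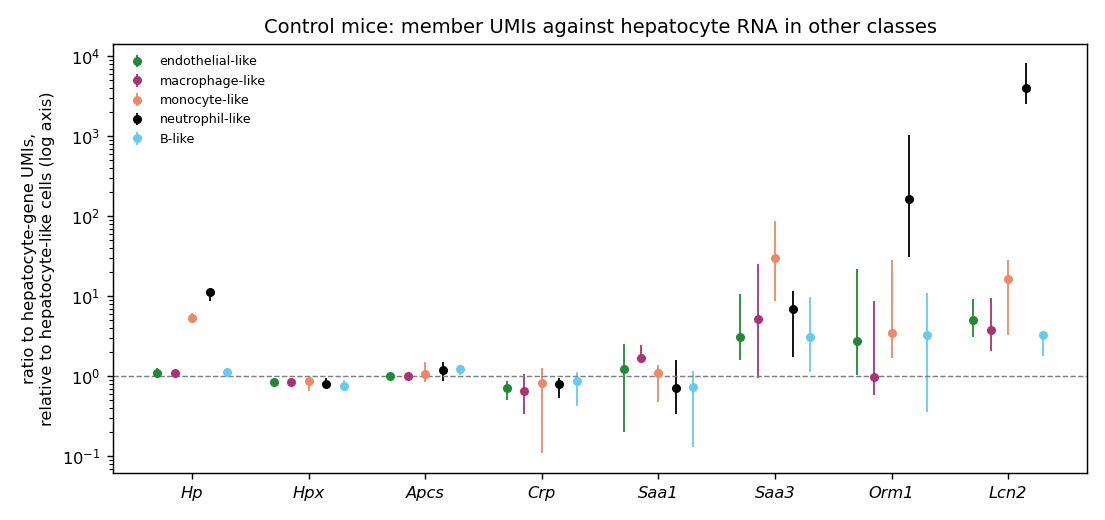
Ratio of member UMIs to hepatocyte marker UMIs in 5 classes of 6 control mice, relative to hepatocyte-like cells of the same mouse (log axis). Points are medians and bars run from the lowest to the highest mouse. The dashed line is at 1, the value for RNA with the same make-up as the captured hepatocyte-like cells. Medians of Hpx, Apcs and Crp lie between 0.653 and 1.24 in the 5 classes. Hp lies above 1 in all 5 and is highest in neutrophil-like and then monocyte-like cells, and Lcn2 is highest in neutrophil-like cells.

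In both groups neutrophil-like cells held the highest Lcn2 level among the classes and no difference in it passed the test. Lcn2 ranged from 3330 to 3830 CPM in controls (median 3536) and from 2476 to 4520 CPM in anemic mice (median 3648), with mouse 2 the lowest. The groups overlapped, and the log2 fold change was -0.03 ± 0.12 (edgeR adjusted p = 0.961). Its direction is not fixed, since it is 0.05 with library sizes without TMM factors. The share of thinned neutrophil-like cells with a Lcn2 UMI was 70.1% to 82.2% in controls and 53.3% to 74.3% in anemic mice (exact permutation test, adjusted p = 0.0446, and 0.0748 without mice 2 and 3), while without thinning the means were 58.2% and 57.5%. Hp, the other granule member, ranged from 1083 to 1424 CPM in controls and 1170 to 1610 CPM in anemic mice (log2 fold change 0.12 ± 0.11, edgeR adjusted p = 0.692). Orm1 ranged from 33.2 to 42.6 CPM in controls and from 46.9 to 104.8 CPM in anemic mice. All 6 anemic mice were above all controls, but the log2 fold change of 0.71 ± 0.17 did not pass (edgeR adjusted p = 0.0571). The mix of clusters differed between mice: cluster 11, the lowest in Lcn2, held 716 cells of mouse 2 beside 166 in cluster 15, while controls had 2177 and 2118. In cluster 11, Lcn2 was 240.4 to 355.2 CPM in controls, 706 and 1059 CPM in mice 2 and 3, and 238.7 to 499.8 CPM in the other anemic mice. In cluster 15 it was 4447 to 5232 CPM in controls, 4641 and 4819 CPM in mice 2 and 3, and 5498 to 6477 CPM in the other 4. These values within clusters were not tested. No member was called in this class, where 0.843% of all 9849 genes tested were called, and 7 of the 9 members tested had an unadjusted p under 0.05, beside 13.1% of all genes. Saa1, Saa2 and Saa3, with 5, 1 and 6 UMIs over all controls, were tested only through anemic mice, so that this count is a description. DESeq2 called 1 member.

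Monocyte-like cells showed a rise of Lcn2 in every anemic mouse. Lcn2 ranged from 1.63 to 16.6 CPM in controls (median 11.3) and from 23.5 to 175.6 CPM in anemic mice (median 40.4), with mice 2 and 3 highest at 96.4 and 175.6 CPM. The groups did not overlap. This gave a log2 fold change of 2.87 ± 0.56 (edgeR adjusted p = 0.0262), and 1.66 without mice 2 and 3 (edgeR adjusted p = 0.00377). It was the 1 member called of 9 tested, against 0.84% of all 11068 genes tested (0.416% called higher, and 1.08% called without mice 2 and 3), and leaving out any 1 control mouse raised its adjusted p above the threshold. Summed neutrophil markers in the same cells were 681.5 to 2052 CPM in controls and 820 to 4927 CPM in anemic mice, with all 8 markers detected. Relative to those markers, Lcn2 was 0.132 to 0.700 times as high as in neutrophil-like cells in controls and 1.11 to 1.93 times in anemic mice, and the part of neutrophil RNA in the rise was not tested further. The ratio of Lcn2 to hepatocyte markers, relative to hepatocyte-like cells, was 3.24 to 28.7 in controls and 6.22 to 37.6 in anemic mice. It did not differ between groups (exact permutation test, adjusted p = 0.721). The share of thinned monocyte-like cells with a Lcn2 UMI was 0 to 1.05% in controls and 1.33% to 11.5% in anemic mice (exact permutation test, adjusted p = 0.0238, and 0.0524 without mice 2 and 3).

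Hp was abundant in monocyte-like cells, with 437.9 to 611.3 CPM in controls and 453.8 to 1272 CPM in anemic mice, and its log2 fold change of 0.70 ± 0.23 did not pass (edgeR adjusted p = 0.164) and was 0.19 without mice 2 and 3 (edgeR adjusted p = 0.587). Mice 2 and 3, at 1272 and 1131 CPM, were the highest, and a UMI of Hp was found in 59.4% and 52.7% of their thinned cells against 31.5% to 38.3% in controls. In B-like cells the share with Hp was 8.65% to 13.2% in controls, as a background for free RNA. Most control monocyte-like cells lay in cluster 9, as did those of the anemic mice other than 2 and 3 (1439 cells, against 33 in cluster 18), while mouse 2 had 3082 cells in cluster 18. In cluster 9 alone Lcn2 was 1.68 to 16.96 CPM in controls, 91.6 and 153.7 CPM in mice 2 and 3, and 15.89 to 44.2 CPM in the other anemic mice, so that the groups overlapped. In the same cluster Hp was 414.9 to 585.9 CPM in controls and 1044 and 962.7 CPM in mice 2 and 3.

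Saa3 in myeloid cells was high in mice 2 and 3. In monocyte-like cells controls held 0 to 18.1 CPM, mice 2 and 3 held 727.4 and 439.9 CPM, and the other 4 anemic mice held 0.902 to 15.1 CPM. A Saa3 UMI was found in 24.4% and 18.3% of thinned monocyte-like cells of mice 2 and 3 and in at most 2.09% of those of any control, beside 1.40% and 0.494% of B-like cells of mice 2 and 3. The log2 fold change of 5.01 ± 1.33 did not pass (edgeR adjusted p = 0.0865) and was 0.34 without mice 2 and 3 (edgeR adjusted p = 0.899). In macrophage-like cells Saa3 was 0 to 1.58 CPM in controls, 445.7 and 176.7 CPM in mice 2 and 3, and 0 to 3.31 CPM in the other 4. There the log2 fold change of 7.79 ± 1.85 passed (edgeR adjusted p = 0.039) and was 1.02 without mice 2 and 3 (edgeR adjusted p = 0.609). Leaving out any 1 control mouse, or anemic mouse 3, raised its adjusted p above the threshold. In cluster 10, which both groups shared, with 3092 control cells and 866 and 544 cells of mice 2 and 3, Saa3 was 0 to 4.22 CPM in controls, 188.9 and 175.7 CPM in mice 2 and 3, and 0 in the other anemic mice. Of the macrophage-like cells of mouse 2, 895 lay in cluster 42, which held 50 control cells, and Saa3 there was 480.5 CPM in mouse 2 and 676.9 CPM in mouse 3. In monocyte-like cluster 18, with 3082 cells of mouse 2, 529 of mouse 3 and 68 of controls, Saa3 was 915.3 and 823.8 CPM in these 2 mice.

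**Figure D4:**
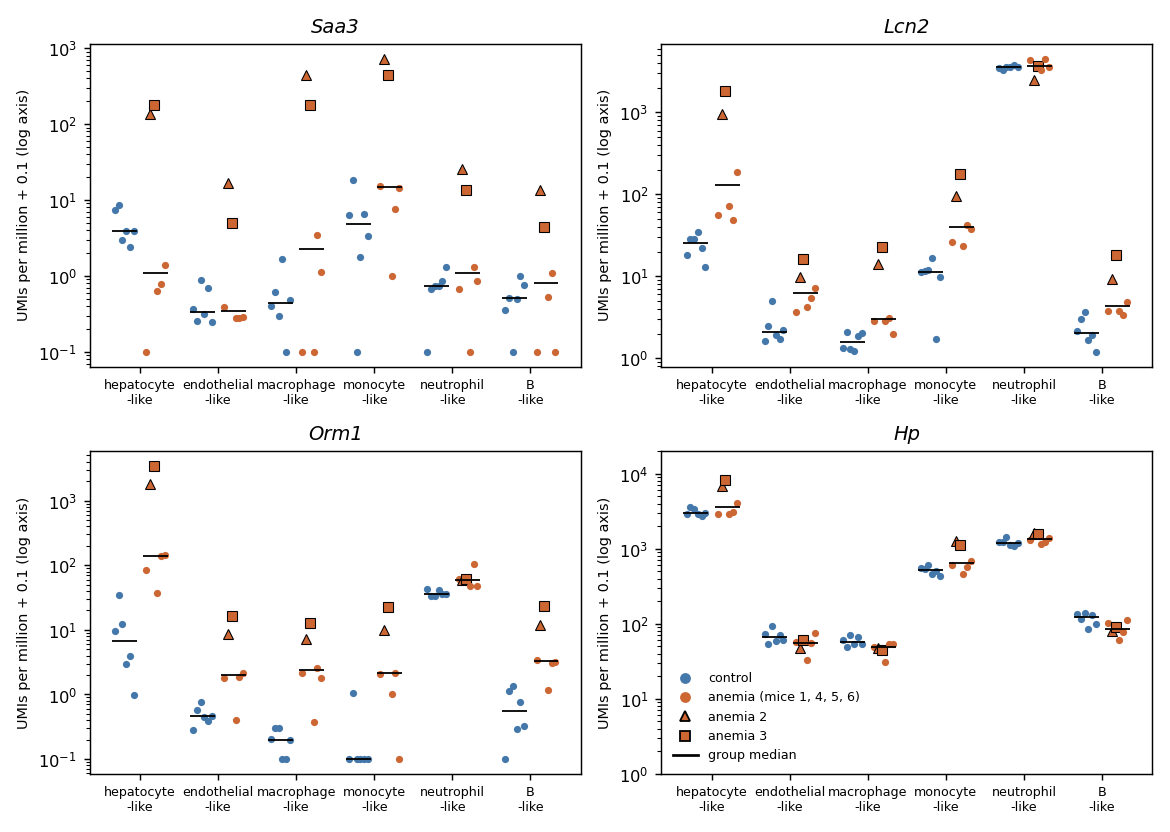
Saa3, Lcn2, Orm1 and Hp in 6 cell classes, in CPM plus 0.1 on log axes, with 1 point per mouse and bars at group medians. Mice 2 (triangles) and 3 (squares) hold the highest Saa3 levels in the classes shown, Lcn2 and Hp are high in neutrophil-like cells of both groups, and Lcn2 and Orm1 are higher in all anemic mice in hepatocyte-like cells.

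In macrophage-like cells, 3 of the 9 members tested were called, all higher, against 2.91% of all 14170 genes tested, 1.5% called higher. Besides Saa3 these were Orm1 (0 to 0.207 CPM in controls and 0.278 to 12.7 CPM in anemic mice; log2 fold change 5.51 ± 0.94, edgeR adjusted p = 0.00784) and Lcn2 (1.13 to 1.97 CPM and 1.88 to 22.4 CPM; 2.48 ± 0.61, edgeR adjusted p = 0.045). The Lcn2 call was lost when any 1 control mouse, or anemic mouse 2 or 3, was left out. Without mice 2 and 3 no member was called among the 7 tested, against 3.28% of all genes. Orm1, Saa2 and Saa3 averaged under 5 UMIs per control mouse and entered the test only through anemic mice: Orm1 had 0 to 2 UMIs in each control and 93 and 122 in mice 2 and 3, and Saa3 had 0 to 14 and then 5787 and 1691. The count of members called here is therefore a description, as it is in B-like cells, where Saa1, Saa2, Saa3 and Orm1 were as low in controls, and in monocyte-like cells, where Saa1, Saa2, Orm1 and Crp were. The ratio of Orm1 to hepatocyte markers in macrophage-like cells of anemic mice was 0.861 to 1.60 times that in hepatocyte-like cells. For Lcn2 this ratio was 0.758 to 4.01 in anemic mice and 2.10 to 9.52 in controls.

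In endothelial-like cells, 2 of the 9 members tested were called, both higher, against 17.8% of all 16785 genes tested, 7.48% called higher. Lcn2 was 1.51 to 4.92 CPM in controls and 3.55 to 16.2 CPM in anemic mice (log2 fold change 1.75 ± 0.39, edgeR adjusted p = 0.00693), and 4 anemic mice were above all controls. Orm1 was 0.178 to 0.671 CPM and 0.301 to 16.0 CPM (3.68 ± 0.83, edgeR adjusted p = 0.00785). Orm1 had 2 to 6 UMIs in each control, under the filter on average, as did Saa2 and Saa3, so that the count of members called is a description here too. Lcn2 and Orm1 were also called without mice 2 and 3, against 17.8% of all genes, at 1.18 (edgeR adjusted p = 0.0147) and 1.96 (edgeR adjusted p = 0.0109). In anemic mice the ratio of Orm1 to hepatocyte markers was 0.717 to 1.25 times that in hepatocyte-like cells. The ratio for Lcn2 was 1.61 to 6.01 in anemic mice and 3.10 to 9.18 in controls. Saa3 was 16.6 and 4.84 CPM in mice 2 and 3 and at most 0.782 CPM in any other mouse, and did not pass (edgeR adjusted p = 0.063).

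B-like cells, which should make none of the members, were used as a background for free RNA. There Lcn2 was 1.10 to 3.52 CPM in controls and 3.26 to 18.2 CPM in anemic mice (log2 fold change 1.77 ± 0.44, edgeR adjusted p = 0.0325), and Orm1 was 0 to 1.26 CPM and 1.08 to 22.98 CPM (3.73 ± 0.77, edgeR adjusted p = 0.0127). Without mice 2 and 3 neither passed, at 0.82 for Lcn2 (edgeR adjusted p = 0.186) and 2.10 for Orm1 (edgeR adjusted p = 0.0509). They were the only calls among the 9 members tested in B-like cells, against 4.07% of all genes, 1.64% called higher. No member was called in dendritic-like, pre-B-like, T-like, NK-like or erythroid-like cells with the edgeR test, where 3 to 9 members were tested per class and 0.631%, 0.312%, 0.468%, 0.624% and 0.579% of all genes were called. Among those members, 1 to 7 per class had an unadjusted p under 0.05, beside 12.8%, 8.93%, 8.1%, 12.7% and 10.9% of all genes in the same order. Some of them, as Orm1 in dendritic-like, NK-like and erythroid-like cells, averaged under 5 UMIs per control mouse. They entered only through anemic mice, so that these counts are a description. Over B-like and these 5 classes DESeq2 called 7 pairs where edgeR called 2.

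Effects were then compared between classes within each mouse, as the log2 CPM of a member in a class minus that in hepatocyte-like cells. The difference of effects passed in 21 of 77 pairs (exact two-sided permutation test over mice, adjusted p). Some of the 21, as Orm1 in monocyte-like cells, entered only through anemic mice, so that the count is a description. For Apcs, which was not called in endothelial-like, macrophage-like or neutrophil-like cells, the effect there minus that in hepatocyte-like cells was -1.23, -1.30 and -1.005 on the log2 scale (adjusted p = 0.037, 0.0333 and 0.037). The summed hepatocyte markers in these classes differed between groups by -1.25, -1.23 and -0.93 on the same scale, and their part in the Apcs values was not tested. In neutrophil-like cells, where neither gene passed on its own, the effect minus that in hepatocyte-like cells was -3.32 for Lcn2 (adjusted p = 0.0333) and -4.96 for Orm1 (adjusted p = 0.037). Saa3 differed the other way, by 3.39 in macrophage-like cells (adjusted p = 0.037) and 2.88 in monocyte-like cells (adjusted p = 0.0397), and controls held 27 and 30 Saa3 UMIs in all in these classes. None passed in cells with at most 10% mitochondrial UMIs, and none with mice 2 and 3 left out, where the smallest exact p is 0.00476 and the smallest adjusted p was 0.122.

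Among 20 other positive acute phase genes, 19 were tested in hepatocyte-like cells, and 3 rose, 7 fell and 9 were not called, beside 22.7% of all genes called higher and 24.9% lower, with a median log2 fold change of 0.07 beside -0.06 for all genes. Among the 9 not called was Saa4, described above as constitutive, so that the list is not made up of induced genes alone. Whether the other listed genes, Pzp among them, are induced in the acute phase of mice was not tested. The list and those below were chosen with earlier results of these data known. The metallothioneins, which bind zinc and copper, rose most: Mt1 from 237 to 504 CPM in controls to 1578 to 12189 CPM in anemic mice (log2 fold change 3.98 ± 0.40, edgeR adjusted p = 1.12e-06), and Mt2 from 7.64 to 25.8 CPM to 93.3 to 1003 CPM (4.85 ± 0.53, edgeR adjusted p = 2.14e-06). Cp, the copper-carrying ferroxidase ceruloplasmin, fell from 1273 to 1678 CPM in controls to 589.9 to 1083 CPM in anemic mice (-0.89 ± 0.13, edgeR adjusted p = 2.57e-05). Pzp, an alpha-2-macroglobulin type protease inhibitor, fell from 897.8 to 1364 CPM to 482.2 to 673.3 CPM (-0.89 ± 0.12, edgeR adjusted p = 1.42e-05). All 4 were also called without mice 2 and 3. Cluster 25, rich in mitochondrial UMIs, held a smaller share of hepatocyte-like cells in anemic mice, as given above for Crp. The part of that shift in these values and in those of the lists below was not tested.

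The 8 negative acute phase genes gave 4 that fell and 2 that rose, in a class where 24.9% of all genes were called lower and 22.7% higher, with a median log2 fold change of -0.21. Alb (albumin) fell from 38154 to 42410 CPM to 16059 to 30323 CPM (-0.58 ± 0.14, edgeR adjusted p = 0.00195), and Apoa1 (the main protein of high-density lipoprotein) from 15219 to 18789 CPM to 7884 to 12274 CPM (-0.52 ± 0.11, edgeR adjusted p = 0.00111). Serpina6, the corticosteroid-binding globulin, fell from 134 to 311 CPM to 15.6 to 64.3 CPM (-2.27 ± 0.25, edgeR adjusted p = 2.2e-06). Rbp4, the plasma retinol carrier, was 10078 to 11102 CPM in controls and 10996 to 12003 CPM in anemic mice, which overlapped. Scaled by TMM factors the ranges were 10346 to 12223 CPM and 12739 to 15142 CPM, without overlap. It rose in this fit (0.30 ± 0.08, edgeR adjusted p = 0.0041), but was at -0.07 in cells with at most 10% mitochondrial UMIs and did not pass without TMM factors.

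Of 28 cytokines, receptors and factors of the pathways that induce the acute phase genes, 22 were tested in hepatocyte-like cells. Cebpb, a C/EBP factor, was the 1 called higher, 12 were called lower and 9 were not called, beside 22.7% of all genes called higher and 24.9% lower, with a median log2 fold change of -0.44. Stat3 fell from 207.5 to 316.9 CPM in controls to 80.1 to 140 CPM in anemic mice (-1.22 ± 0.13, edgeR adjusted p = 1.9e-06), Nfkbiz, an inducible regulator of NF-kB targets, from 50.8 to 80.2 CPM to 13.7 to 32.8 CPM (-1.31 ± 0.18, edgeR adjusted p = 1.63e-05), and Lifr, a receptor of the interleukin-6 family, from 71.5 to 113.6 CPM to 32.0 to 52.2 CPM (-0.94 ± 0.13, edgeR adjusted p = 2.33e-05). In endothelial-like cells the same list gave 10 higher and 1 lower of 25 tested, where 7.48% of all genes were called higher and 17.8% in either direction. Socs3 and Nfkbia, which restrain these pathways, were among the genes called lower in hepatocyte-like cells and higher in endothelial-like cells. In monocyte-like cells 0 of 23 were called by edgeR, beside 1 of 21 in neutrophil-like and 2 of 23 in macrophage-like cells. Over all genes tested, 0.84%, 0.843% and 2.91% were called in these classes in the same order. Of 13 receptors and partners of the members, 8 were tested in hepatocyte-like cells and 3 fell, among them Lrp1, the receptor that clears hemopexin with heme (-0.86 ± 0.10, edgeR adjusted p = 4.41e-06), and Fcgr2b, an Fc receptor (-0.75 ± 0.23, edgeR adjusted p = 0.0135). The third was Hmox1, the heme-degrading oxygenase, named here after its call was seen. The 8 endothelial markers in hepatocyte-like cells summed to 124.1 to 209.9 CPM in controls and 56.6 to 132.6 CPM in anemic mice. The part of endothelial RNA in the fall of Fcgr2b was not tested.

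Over the 11 classes, the genes whose mean log2 CPM followed a member most closely were found among 12513 genes that reached 10 CPM in a class. For Hp they were Vnn3, Mgst1 and C3 (Pearson's r = 0.968, 0.964 and 0.961), and for Lcn2 they were G0s2, Wfdc21 and Gca (0.983, 0.977 and 0.956). For Saa1 they were Smim22, Sult2a6 and Ctf1 (0.998, 0.997 and 0.996), and for Saa3 they were Fam20c, Ccl9 and Arhgef37 (0.985, 0.931 and 0.928). The 11 points share the same 12 libraries and their free RNA, so these values are a description.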

How the data were processed

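Liver cells of 12 mice were sequenced with 10x Genomics 3' chemistry (v2 in the labels, v3.1 in the study's methods). The authors deposited raw UMI counts per gene and cell from Cell Ranger 7.0.0 on mm10, with 1 matrix per mouse, and all 12 libraries carry the same batch label. Litter and sex are not tied to libraries. Groups came from the labels. A cell was kept if its total lay between 500 and 50000 UMIs and its mitochondrial share did not exceed 50%, with called doublets (11.9% to 18.3% per library) left in. Cells were clustered without the members (20 principal components, 20 neighbours, Leiden resolution 2 with leidenalg 0.10.2) into 74 clusters. A cluster was named "-like" from markers, and rules that leave clusters with close scores or another class's markers among their top 10 genes unnamed were set after the clusters were seen. Names of cell types may differ from those of the study.

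Counts were summed per mouse and class, mitochondrial and ribosomal genes were dropped, and genes averaging 5 or more UMIs per mouse were tested with edgeR 4.0.16 (TMM factors, quasi-likelihood F test, n = 6 per group, Benjamini-Hochberg adjustment, threshold 0.05) in R 4.3.3. Single values were tested by exact permutation over mice. Ratios to hepatocyte RNA added 0.5 UMI to each count. A level of 0 allows 3 UMIs, and such limits cover counting error only. The procedure was tested on simulated counts. Alternatives were DESeq2 1.42.0, limma 3.58.1 voom, other filters, scaling, doublets, clustering, a replicate block and mice left out.

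The text names all members, Saa4 and Orm3, and from each context list up to 3 genes per direction that were called, did not overlap between groups on TMM-scaled CPM and changed most in hepatocyte-like cells. The members and lists were chosen with earlier results of these data known. In summed cells, more cells with a gene and more RNA per cell cannot be told apart except where shares of cells are given.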

Additional observations from a re-analysis of the deposited data

Results flagged for a closer look

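By a gap test, single mice stood far from the rest of their group of 6 in 19 groups, which belong to 17 member and class pairs. Chance alone passes that test in about 1 of 20 groups of bell-shaped values. Many levels here are skewed or rest on few UMIs, so that rate need not hold and the count is a description. Anemic mouse 3 was the highest of its group for Saa1 in hepatocyte-like (3290 CPM), endothelial-like (14.7), macrophage-like (15.5) and monocyte-like cells (16.7 CPM). It was also the highest for Saa2 in hepatocyte-like (2208 CPM), endothelial-like (15.6), macrophage-like (10.1), monocyte-like (13.6) and neutrophil-like cells (18.2 CPM). Anemic mouse 2 was highest for Saa3 in endothelial-like cells (16.6 CPM), and anemic mouse 5 for Orm1 in neutrophil-like cells (104.8 CPM). Among controls, mouse 2 was highest for Orm1 (34.9 CPM) and Orm2 (24.2 CPM) in hepatocyte-like cells and for Saa3 (18.1 CPM) and Orm1 (0.955 CPM) in monocyte-like cells. Control 3 was highest for Lcn2 in endothelial-like cells (4.92 CPM), control 4 for Saa2 in hepatocyte-like (25.2 CPM) and Saa3 in macrophage-like cells (1.58 CPM), and control 6 for Saa2 in neutrophil-like cells (0.614 CPM). The values of Orm1 in monocyte-like and Saa2 in neutrophil-like controls are 1 UMI against 0 in the other 5 mice, so that the gap shows nothing beyond that count.

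The log2 change of anemic over control mice differed from that in hepatocyte-like cells in 21 of 77 pairs (exact two-sided permutation test over mice, adjusted p of 0.0333 to 0.0397), and in none of them without mice 2 and 3. The difference for Orm1 was negative in endothelial-like (-2.81), monocyte-like (-3.73), neutrophil-like (-4.96), dendritic-like (-2.79), NK-like (-3.31) and erythroid-like cells (-2.30). Outside endothelial-like and neutrophil-like cells, the control side of these Orm1 values rests on 1 to 12 UMIs over all 6 mice, and so on the added 0.5 UMI and the depth. The difference for Apcs was negative in endothelial-like (-1.23), macrophage-like (-1.30), neutrophil-like (-1.005), T-like (-1.61), NK-like (-1.32), B-like (-1.56) and pre-B-like cells (-0.99). The difference for Hp was negative in macrophage-like (-0.92), B-like (-1.05), T-like (-1.18) and NK-like cells (-1.25), and that for Lcn2 in neutrophil-like (-3.32) and B-like cells (-1.79). The difference was positive for Saa3 in macrophage-like (3.39) and monocyte-like cells (2.88). Anemic mice 1, 4, 5 and 6 held 0 to 5 Saa3 UMIs in hepatocyte-like cells, so these values rest partly on the added 0.5 UMI.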

How the results depend on the processing

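Counts of calls by edgeR depended on the setting more than directions did. Leaving out each mouse in turn gave 4766 to 5353 called genes and 7 to 9 called members in hepatocyte-like cells, 2124 to 3758 and 2 to 4 in endothelial-like cells, 134 to 522 and 1 to 4 in macrophage-like cells, 17 to 131 and 0 to 2 in monocyte-like cells, and 22 to 94 and 0 to 1 in neutrophil-like cells. It gave 1 to 8 called member and class pairs in the other immune classes, 17 to 24 ratios to hepatocyte RNA, 0 to 29 differences of effects and 0 to 14 shares of cells. The differences and the shares fell to 0 when any 1 control mouse was left out. Without both anemic mice 2 and 3, an alternative chosen after seeing the data, 4 members were called in hepatocyte-like cells, 0 in macrophage-like cells and 0 in the other immune classes, and 16 ratios, 0 differences and 0 shares passed. With a mean of at least 50 UMIs, 3464, 259 and 45 genes were called in hepatocyte-like, macrophage-like and neutrophil-like cells, and 0 members in endothelial-like, 1 in macrophage-like and 0 in other immune cells. Without a filter 141 and 316 genes and 3 and 5 members were called in monocyte-like and neutrophil-like cells, and 25 pairs in other immune classes. With DESeq2 932, 188 and 147 genes were called in macrophage-like, monocyte-like and neutrophil-like cells, with 4 members in endothelial-like, 3 in monocyte-like and 1 in neutrophil-like cells and 7 pairs elsewhere. The joint limma voom fit called 950 genes in macrophage-like and 206 in monocyte-like cells, 1 member in endothelial-like and 0 in macrophage-like, monocyte-like and other immune cells. At most 10% mitochondrial UMIs left 2431 genes in hepatocyte-like cells, 0 ratios and 0 differences. Clustering at resolution 1 gave 202 and 41 genes in macrophage-like and neutrophil-like cells, 1 member in macrophage-like cells and 32 differences. Without doublets 172 and 138 genes were called in monocyte-like and neutrophil-like cells, and 5 shares passed. Library sizes without TMM factors gave 1 member in neutrophil-like cells, 4 pairs in other immune classes and 8 differences. A covariate of Y-linked genes left 49 genes in neutrophil-like cells, cells with less hepatocyte RNA left 25 genes in monocyte-like cells, and Alb alone in the denominator left 15 ratios. The causes of these shifts were not tested.

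Replicate numbers were not taken as pairs: same-numbered mice correlated at -0.208 to 0.324 in hepatocyte-like cells and 1 of 6 matched its own number best. With the replicate block, 5124 genes and 6 members were called in hepatocyte-like cells, 387 genes and 5 members in monocyte-like cells, 1 member in neutrophil-like cells and 9 pairs in other immune classes. In the block test, which flips signs within pairs, 0 ratios, 0 differences and 0 shares passed, since the smallest p of 64 sign flips is 0.0312.

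Values that changed sign were mostly small. In hepatocyte-like cells they were Saa3 (-2.53) and Hpx (-0.14) without mice 2 and 3, Saa3 with voom (-1.38), Crp with equal cluster weights (0.31), and Rbp4 with at most 10% mitochondrial UMIs (-0.068). Lcn2 in neutrophil-like cells was 0.054 without TMM factors, 0.011 without a filter, 0.080 without mice 2 and 3 and 0.020 with voom, and ranged from -0.085 to 0.062 with single mice left out (0.011 without control 5 and 0.062 without anemia 2). Crp in endothelial-like cells was 0.0094 without anemia 2 and 0.059 without mice 2 and 3 (-0.36 to 0.0094 with single mice left out), and Saa1 there was -0.46 without mice 2 and 3. Apcs was -0.026, -0.038 and -0.038 without doublets in endothelial-like, monocyte-like and neutrophil-like cells, and -0.15 and -0.10 in monocyte-like and neutrophil-like cells with less hepatocyte RNA. Hp in macrophage-like cells was 0.10 at resolution 1. Apcs in B-like cells was 0.011 without mice 2 and 3 and 0.0040 with voom, and ranged from -0.12 to 0.11 with single mice left out (0.11 without control 5, 0.04 without anemia 2 and 0.07 without anemia 4). Depth limits low levels: a count of 0 in 1 mouse allows up to 2.23 CPM in hepatocyte-like cells.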
